A study of Danio rerio with 9 samples.

Results

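Tubulin genes of the adult zebrafish inner ear were examined at 2 and 4 days after sound exposure. The members were the probes of the array whose gene name began with tuba, tubb or tubg, or whose description named an alpha, beta or gamma tubulin in the form used by the gene nomenclature, and 19 of the 21495 probes met this rule. They carried 11 of the 18561 gene names on the array. There were 10 probes for α-tubulins (3 for tuba1, 5 for the tuba8 genes and 1 each for tuba4l and tuba7l), 7 for the β-tubulins tubb2 and tubb5, and 2 that began with tubg. Of this last pair tubgl is γ-tubulin itself, while tubgcp3 encodes a subunit of the complex that holds γ-tubulin and is no tubulin.

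Adult fish of 3 groups were compared. The Day 2 and Day 4 groups had been exposed to a loud, low-frequency tone and then left to recover for 2 or 4 days in separate tanks. The controls stayed in the exposure chamber equally long and at equal temperature, without the sound. The methods describe no recovery period for them. Whole ears of 18 to 20 fish were pooled in each group, so that a group was 1 RNA pool, and the pool was hybridized to 3 one-color arrays. The 3 arrays are technical replicates, and every test below measures differences between pools against the spread between hybridizations and says nothing of the spread between fish.

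Microtubules are hollow polymers of dimers of α- and β-tubulin, and γ-tubulin in its ring complex starts their growth. In the ear they fill the supporting cells as stiff bundles, form the core of the kinocilium on each hair cell, and run along the axons of the auditory nerve. Fish, like mammals, have several α- and β-tubulin genes, whose proteins are much alike and whose expression differs by tissue. The α1-tubulin genes of fish are known for their expression in growing and regenerating neurons, and dividing cells use tubulin for the spindle. Near-identical coding sequences mean that a probe in a coding region can bind the product of a related gene, and how far each probe does so was not tested.

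Levels are given as log2 of the spot intensity minus the log2 of the median spot of the same array. A level of 1 is therefore an intensity above the array median by a factor of 2. The level of one probe cannot be set against that of another, because probes differ in how well they bind. Of the 19 probes, 16 were well above background on all 9 arrays, tuba4l and tubgcp3 on 8 (not on replicate 2 of Day 4), and tuba7l on 0. No tubulin spot was saturated. By array, 47.9% to 56.9% of spots were well above background on Day 2, 39.5% to 53.5% on Day 4 and 47.3% to 55.8% in controls. Replicates 2 and 3 of Day 4 had the dimmest median spots (intensities of 53.5 and 60.6, against 78.4 to 94.0 on the other 7 arrays). Both were placed on slide 3 by their scan time, together with replicate 3 of Day 2 and replicate 3 of the controls. The median background was 129 to 154 on the arrays of slide 3 and 63.5 to 74.0 on the others. The share of spots well above background was 39.5% to 47.9% on slide 3 and 49.5% to 56.9% elsewhere. No label names a slide, and the methods instead describe slides that each held 1 array of every time point. Changes were fitted with limma with the slide as a term. Its standard errors and P-values are moderated, so that each blends the spread of the probe itself with that of all probes. A probe counted as significantly regulated when its adjusted P-value over all probes was at most 0.05 and its fold change at least 1.4.

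The 3 tuba1 probes differed among themselves, with fold changes of 1.79 and 1.73 on Day 2 for 2 of them and 1.06 for the other, and none passed the test. The array has 2 probes for the tuba1 transcript NM_194388, both on chromosome 23 of the danRer2 build, at chr23:38983886-38983945 (tuba1 probe 2) and chr23:38984969-38985130 (tuba1 probe 3). The current RefSeq symbol of this transcript is tuba1b. The third probe (tuba1 probe 1, chr23:38989062-38989121) was designed to the clone BC067554, lies further along the same chromosome, and was matched to tuba1b only through the older symbol. Its neighborhood holds related genes, since tuba1a and tuba1c lie close to tuba1b in the current annotation.

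Probe 3 of tuba1 read 2.89, 2.82 and 2.97 on the Day 2 arrays, against 2.04, 1.96 and 2.16 on the control arrays. All Day 2 arrays lay above all control arrays. The log2 fold change was 0.84 ± 0.14 (SE), a fold change of 1.79, and the adjusted P-value of 0.076 missed the threshold. The difference was 0.85, 0.86 and 0.81 within slides 1, 2 and 3. Probe 2 of tuba1 gave 5.63, 5.50 and 5.61 on Day 2 and 4.96, 4.64 and 4.75 in controls, again without overlap. Its log2 fold change was 0.79 ± 0.14 (SE), a fold change of 1.73 with an adjusted P-value of 0.097. Both NM_194388 probes thus pointed the same way by nearly the same amount, and neither passed. Because whole ears were measured, a cell type that became more or less frequent and a change of RNA per cell cannot be told apart.

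On Day 4 the same probes were close to the controls. Probe 3 read 2.04, 1.92 and 1.72 on Day 4, which overlaps the control arrays, with a log2 fold change of -0.19 (95% interval -0.55 to 0.16). Probe 2 read 4.73, 5.07 and 4.93, with 0.06 (95% interval -0.32 to 0.44). Set against Day 2, all Day 4 arrays were lower for both probes. The log2 fold change of Day 4:Day 2 was -1.03 ± 0.15 (SE) for probe 3 (adjusted P = 0.13) and -0.73 ± 0.15 (SE) for probe 2 (adjusted P = 0.26). Probe 3 differed by -0.85 within slide 1 and by -1.15 within slide 3, which held the dim Day 4 arrays. The part of array brightness in this was not tested.

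Probe 1 of tuba1 read 7.56, 7.38 and 7.47 on Day 2 and 7.44, 7.32 and 7.41 in controls, and these arrays overlapped. Its log2 fold change was 0.08 (95% interval -0.25 to 0.41) on Day 2, -0.12 on Day 4 and -0.20 for Day 4:Day 2. The split between the probes can be followed within each array, where the scaling between arrays does not matter. The mean of probes 2 and 3 minus probe 1, given as its deviation from the control mean of that difference, was 0.66, 0.74 and 0.79 on the Day 2 arrays and 0.03, -0.05 and 0.02 on the control arrays. On the Day 4 arrays it was 0.13, -0.02 and 0.09. With normexp background correction the split was smaller on Day 2 (0.37 to 0.51, against -0.21 to 0.12 on the control arrays), and the Day 4 arrays were spread over both, from -0.12 to 1.01. Under it probe 1 itself stood at 0.57 for Day 2:Control. The median of the 8024 probes well above background on all arrays was 0.42 with normexp, against 0.05 without it. The comparison of probes 2 and 3 with probe 1 was chosen after the values were seen and carries no test.

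**Figure D1:**
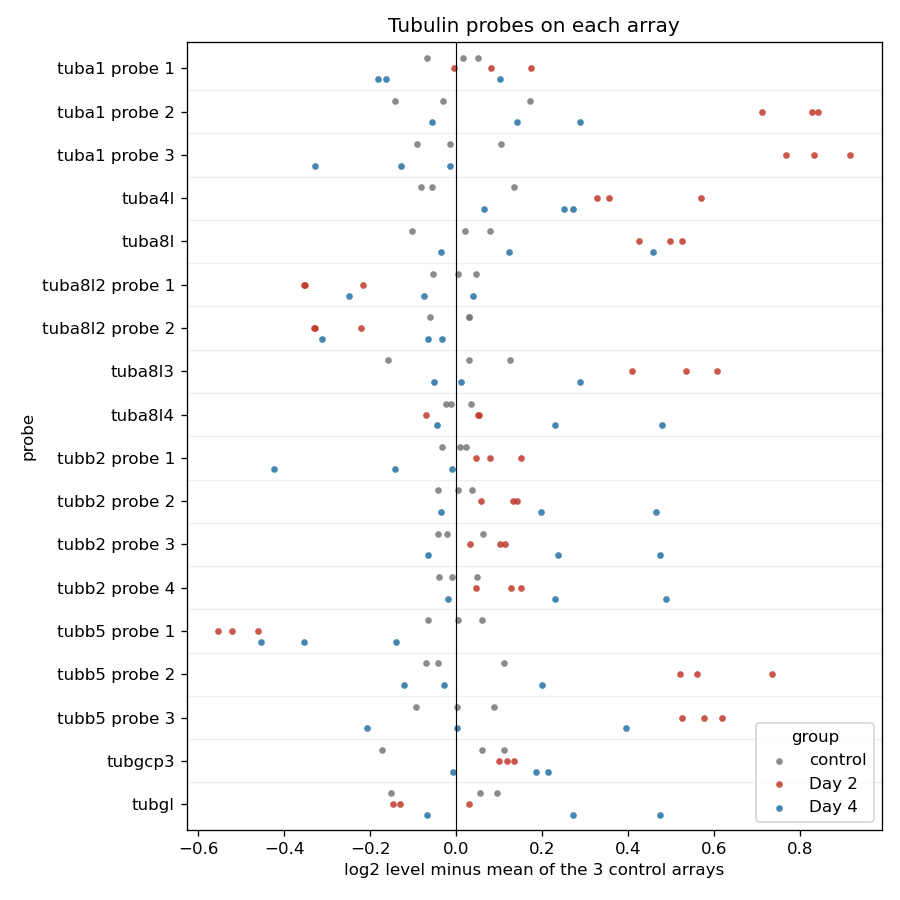
Level of 18 tubulin probes on each of the 9 arrays, as log2 intensity minus the mean of the 3 control arrays (horizontal axis), with one row per probe and one point per array. Probe tuba7l, which was not above background on any array, is left out. The 3 Day 2 points of tuba1 probes 2 and 3, tuba8l3, tuba8l, tuba4l, tubb5 probes 2 and 3 and, by less, tubb2 probes 1 and 2 lie to the right of all control points, and those of tuba8l2 and tubb5 probe 1 lie to the left.

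The tuba8 genes are fish α-tubulins named for their resemblance to the divergent mammalian TUBA8. The array holds 4 such gene names, and their Day 2 values lay on both sides of the controls. The probe for tuba8l3 read 7.72, 7.85 and 7.92 on Day 2, against 7.15, 7.34 and 7.44 in controls, with no overlap. Its log2 fold change was 0.52 ± 0.13 (SE), a fold change of 1.43 with an adjusted P-value of 0.21. The Day 4 arrays, at 7.26, 7.60 and 7.32, overlapped the controls, with a log2 fold change of 0.06 (95% interval -0.28 to 0.39). For Day 4:Day 2 the log2 fold change was -0.46 ± 0.14 (SE), and all Day 4 arrays were below all Day 2 arrays (adjusted P = 0.40).

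The probe for tuba8l, whose current symbol is tuba5, lies at chr8:21911378-21911437. It read 8.41, 8.34 and 8.44 on Day 2 and 7.99, 7.81 and 7.93 in controls, again without overlap. Its log2 fold change of 0.48 ± 0.15 (SE) had an adjusted P-value of 0.35. On Day 4 the arrays were spread from 7.88 to 8.37, with replicate 2 near the Day 2 level and the others near the controls. The log2 fold change was 0.12 for Day 4:Control and -0.36 for Day 4:Day 2, with overlap in both.

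The 2 probes of tuba8l2 share most of their target and count as 1 measurement. One read 3.72, 3.59 and 3.59 on Day 2 against 3.94, 3.89 and 3.99 in controls, and the other read 4.53, 4.42 and 4.42 against 4.78, 4.69 and 4.78. All Day 2 arrays were below all control arrays for both. The log2 fold changes were -0.31 and -0.29 (adjusted P = 0.58 and 0.60). On Day 4 the log2 fold changes were -0.11 and -0.15, and the arrays overlapped with the controls. The probe for tuba8l4 read 10.33, 10.21 and 10.33 on Day 2 and 10.26, 10.25 and 10.31 in controls. Its log2 fold change was 0.01 (95% interval -0.35 to 0.38) on Day 2 and 0.17 (95% interval -0.22 to 0.56) on Day 4. The positions of tuba8l2, tuba8l3 and tuba8l4 in danRer2 are on sequence not assigned to a chromosome.

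The design also set tuba1 against tuba8l3 within each array, with tuba1 as the mean of its 3 probes. The log2 difference was 0.05 higher on Day 2 than in controls (-2.51 ± 0.13 and -2.57 ± 0.20, SD, n = 3 each). On Day 4 it stood at -2.69 ± 0.09 (SD, n = 3), a difference of -0.12 from controls and of -0.17 from Day 2. Leaving out single arrays moved these values by more than a factor of 1.5. Without control replicate 1 the change was 0.17 for Day 2:Control and -0.0069 for Day 4:Control. Without Day 2 replicate 1 it was -0.022 for Day 2:Control and -0.099 for Day 4:Day 2. Within slides 1, 2 and 3, Day 2 minus control was -0.02, 0.09 and 0.10. The exact two-sided permutation tests gave P = 0.60, 0.50 and 0.20, all 0.60 after adjustment over the 3 comparisons. With 3 arrays against 3 such a test cannot go below 0.10. The groups overlapped in every comparison. With probes 2 and 3 of tuba1 alone, a choice made after seeing the values and not tested, the change on Day 2 was 0.30. It was 0.19, 0.35 and 0.35 within slides 1, 2 and 3, although over all slides the highest control array was above the lowest Day 2 array. For Day 4:Day 2 the same difference was -0.40, and no Day 4 array overlapped with Day 2.

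The remaining α-tubulin probes were dim. The probe for tuba4l read 1.98, 1.74 and 1.77 on Day 2 and 1.55, 1.33 and 1.36 in controls, all Day 2 arrays above all control arrays. Its log2 fold change was 0.42 ± 0.14 (SE) with an adjusted P-value of 0.37. Its Day 4 arrays read 1.48, 1.66 and 1.68, of which only replicates 1 and 3 were well above background. For tuba7l no group was above background, and no change can be given.

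Among the β-tubulins, the 3 probes of tubb5 split in the way those of tuba1 did, and further. Probes 2 and 3 of tubb5 were designed to NM_198818 and lie at chr20:10203605-10203616 and chr20:10203655-10203714 in the positions of the files, the first given only for part of the probe. Probe 1 of tubb5 was designed to the Ensembl transcript ENSDART00000046578 and lies at chr20:10206500-10206559. Whether it reads the same transcript as the others was not tested.

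Probe 2 of tubb5 read 6.08, 5.87 and 5.91 on Day 2, against 5.46, 5.28 and 5.31 in controls. Probe 3 read 5.16, 5.07 and 5.12 against 4.63, 4.45 and 4.55. Both were higher on all Day 2 arrays than on any control array. The log2 fold changes were 0.61 ± 0.14 (SE) and 0.57 ± 0.18 (SE), fold changes of 1.52 and 1.49, and the adjusted P-values were 0.18 and 0.35. On Day 4 both overlapped with the controls, with log2 fold changes of -0.01 and 0.03. For Day 4:Day 2 they were -0.62 ± 0.15 and -0.55 ± 0.20 (SE), and no Day 4 array reached the lowest Day 2 array.

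Probe 1 of tubb5 had the opposite sign. It read 4.72, 4.75 and 4.81 on Day 2, against 5.33, 5.21 and 5.28 in controls, and all Day 2 arrays were below all control arrays. The log2 fold change was -0.51 ± 0.13 (SE), with an adjusted P-value of 0.24. With normexp background correction it was -0.08, while probes 2 and 3 stood at 1.00 and 0.97. The median of the 8024 probes well above background on all arrays was 0.42 with normexp, against 0.05 without it. On Day 4 probe 1 read 4.92, 5.13 and 4.82, also below every control array. Its log2 fold change without normexp was -0.34 ± 0.14 (SE), with an adjusted P-value of 0.52. Within the arrays, the mean of probes 2 and 3 minus probe 1 deviated from its control mean by 1.23, 1.04 and 1.03 on Day 2, and by 0.04, -0.02 and -0.02 on the control arrays. On Day 4 the deviation was 0.34, 0.44 and 0.29, between the other groups and overlapping neither. With normexp the 3 groups stayed apart in the same order, at 0.93 to 1.28 on Day 2, 0.26 to 0.35 on Day 4 and -0.03 to 0.04 on the control arrays. This difference too was chosen after the values were seen and was not tested.

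**Figure D2:**
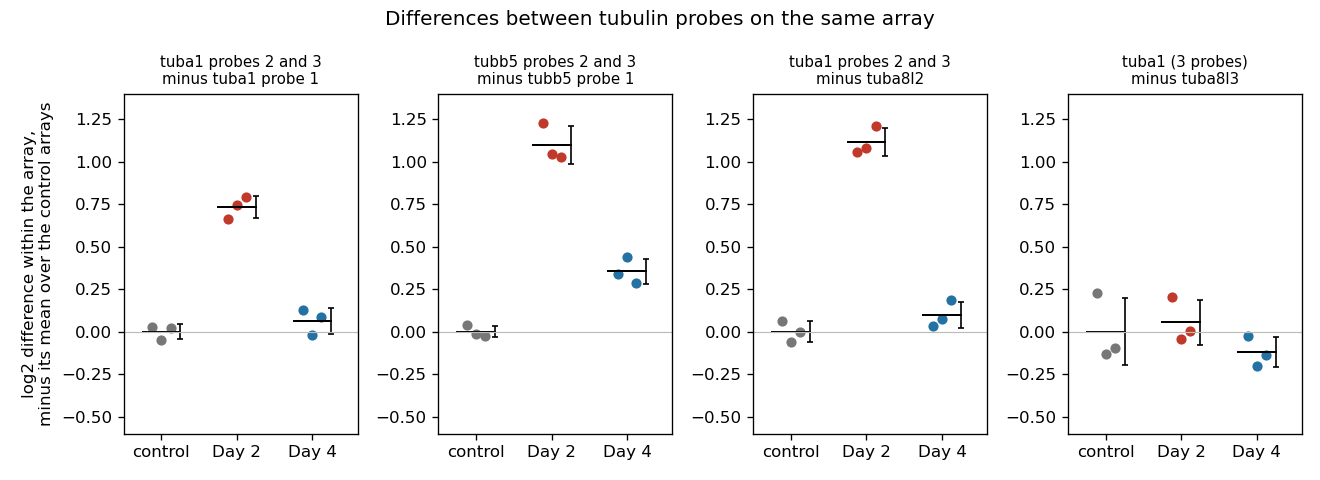
Log2 difference between tubulin probes on the same array, minus its mean over the control arrays (vertical axis), by group, with one point per array and bars for the mean and SD of 3 arrays. For tuba1 and tubb5 the NM_194388 and NM_198818 probes are set against the third probe of the same gene, and the 3 Day 2 points (0.66 to 0.79 for tuba1, 1.03 to 1.23 for tubb5) stand clear of the control points. For the 3 probes of tuba1 against tuba8l3 the groups overlap.

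The 4 probes of tubb2, a β-tubulin now named tubb4b, all have NM_198809 as their target on chromosome 14. Probes 2, 3 and 4 overlap within chr14:4324746-4324812 and share most of their target, while probe 1 lies at chr14:4324103-4324162. On Day 2 their log2 fold changes were 0.08 to 0.11, with adjusted P-values of 0.95 for all 4. Probe 2 of tubb2 read 10.02, 9.95 and 10.04 on Day 2 and 9.90, 9.85 and 9.93 in controls, which do not overlap but differ by a fold change of only 1.08. On Day 4 the probes separated. Probes 2, 3 and 4 had log2 fold changes of 0.16 to 0.18, with replicates 2 and 3 above replicate 1 (10.36 and 10.09, against 9.86, for probe 2). Probe 1 read 6.93, 7.06 and 6.64 on Day 4 and 7.09, 7.08 and 7.04 in controls, with a log2 fold change of -0.18 (95% interval -0.56 to 0.21).

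The γ-tubulin gene tubgl, now tubg1, has its probe at chr3:29105613-29105672. It read 4.68, 4.67 and 4.84 on Day 2 and 4.91, 4.66 and 4.87 in controls, with a log2 fold change of -0.08 (95% interval -0.45 to 0.29). The Day 4 arrays read 4.74, 5.29 and 5.08, with a log2 fold change of 0.14 (95% interval -0.26 to 0.53), and the arrays overlapped. The probe for tubgcp3 at chr1:48426593-48426653, which encodes a subunit of the γ-tubulin ring complex, had log2 fold changes of 0.12 on Day 2 and 0.10 on Day 4 and overlapped with the controls on both days.

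Over all 19 tubulin probes, 0 passed the test on Day 2 relative to controls, against 0.735% of all 21495 probes. In Day 4:Control the count was 0 as well (0.279% of all probes), and so it was in Day 4:Day 2 (0.0651%). Before adjustment, and in the same order of comparisons, 8, 0 and 5 tubulin probes were at or below 0.05 in the limma fit, against 9.31%, 9.64% and 9.13% of all probes. A fold change of 1.4 or more was reached by 6, 0 and 4, against 9.86%, 39.4% and 17.6% of all probes. Day 2 arrays were all above the control arrays for 9 tubulin probes and all below for 3, which was the case for 15.6% and 8.80% of all probes. Among probes well above background on all 9 arrays the counts were 8 and 3 of 16, against 29.5% and 12.9% of 8024 probes. In Day 4:Control no tubulin probe was higher without overlap (15.6% of all probes) and 1 was lower (3.52%), probe 1 of tubb5. In Day 4:Day 2, 1 was higher (12.8%) and 7 were lower (5.97%). The higher one was probe 1 of tubb5 (log2 fold change 0.17). The lower ones were tuba1 probes 2 and 3, tuba8l3, tubb5 probes 2 and 3, tuba4l (-0.26) and tubb2 probe 1 (-0.27). These counts are descriptions, since several probes share a target.

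The median log2 fold change of the 16 brighter tubulin probes was 0.10 on Day 2, 0.04 on Day 4 and -0.08 for Day 4:Day 2, beside 0.05, 0.12 and 0.06 for all 8024 probes of that brightness. Single tubulin probes ran from -0.51 to 0.84 on Day 2. With a filter that kept only the 10040 probes measured well above background on every array of some group, 6 of the 18 tubulin probes left passed in Day 2:Control, against 8.98% of all probes left, in either direction. These were tuba1 probes 2 and 3, tuba8l3 and tubb5 probes 2 and 3, which were higher, and tubb5 probe 1, which was lower. Under the same filter tuba1 probes 2 and 3 and tubb5 probes 2 and 3 passed as lower in Day 4:Day 2 (as did 5.07% of all probes left), and 0 passed in Day 4:Control (9.56% of all probes left, in either direction). Over 15 alternatives the adjusted P-value of tuba1 probe 3 in Day 2:Control ran from 2.65e-08 to 0.82.

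**Figure D3:**
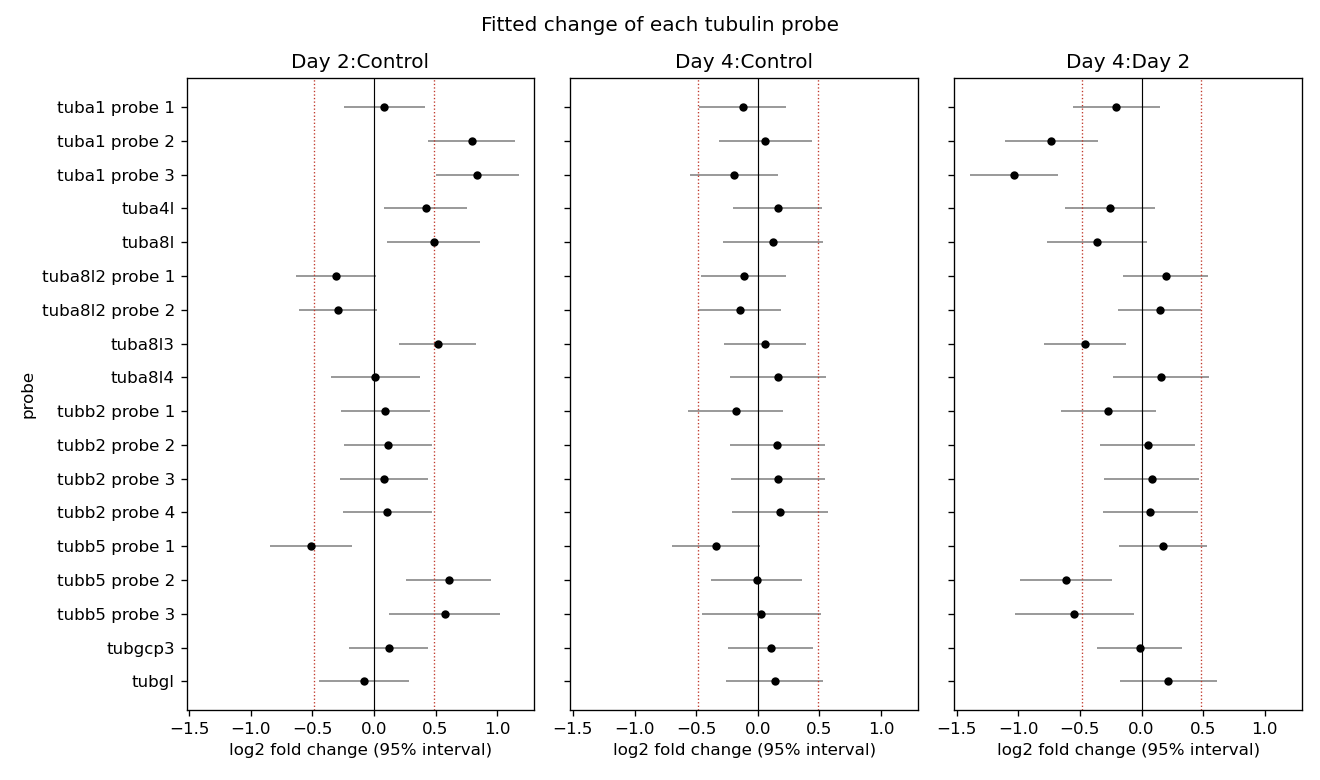
Log2 fold change of 18 tubulin probes with its 95% interval from the limma fit (horizontal axis) for each of the 3 comparisons, with dotted lines at a 1.4-fold change in either direction. On Day 2 the estimates run from -0.51 for tubb5 probe 1 to 0.84 for tuba1 probe 3, while on Day 4 relative to controls they lie between -0.34 and 0.18.

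A further 16 probes have an α-, β- or γ-tubulin in their description but in another wording, and the rule left them out. Of these, 8 were above background on no array and 5 on all 9. On Day 2 those 5 had log2 fold changes from 0.0004 to 0.09, and all overlapped with the controls. Among them TC290002 (chr23:38989920-38991655) lay nearest to the tuba1 probes and stood at 0.03. Of the outside probes above background on most arrays, TC290804 had the largest Day 2 difference. It is described as a tubulin alpha-2 chain and located at chr23:39010905-39010964, near the tuba1 probes. It was named after its values were seen. It read 2.23, 2.09 and 2.23 on Day 2 and 1.38, 1.12 and 1.08 in controls, and its log2 fold change was 0.99 with an adjusted P-value of 0.073. On Day 4 it read 1.64, 2.02 and 1.80, again above all control arrays. Only 2 of these Day 4 arrays were well above background for it. Its log2 fold change for Day 4:Control was 0.58, with an adjusted P-value of 0.37. Of the probes at the tubb2 locus, TC290782 and TC275320 read lower on Day 4 (log2 fold changes of -0.72 and -0.74, adjusted P = 0.40 and 0.37), with replicates 2 and 3 the lowest at 1.17 and 0.89 for TC290782. Both were also named after their values were seen. They lie at chr14:4321253-4321312 and chr14:4321247-4321306, share most of their target and count as 1 measurement. On Day 4, TC290782 was well above background on only 2 arrays and TC275320 on only 1, against 3 in controls. Replicate 1 of Day 4 read 2.02 for TC290782, against 2.30, 2.06 and 2.07 in controls. At the same locus TC290783 and TC268197, well above background on all 9 arrays, were also below every control array on Day 4. Their log2 fold changes were -0.29 and -0.28 (adjusted P = 0.52 for both). The remaining probes outside the rule at this locus were above background on no array.

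Genes that fold tubulin or act on microtubules were read from a list of 78, of which 37 had a total of 54 probes. In Day 2:Control 0 rose and 1 fell by the test, which 0.735% of all probes passed in either direction. In Day 4:Control and Day 4:Day 2, 0 rose and 0 fell (0.279% and 0.0651% of all probes). The one that fell was 1 of 3 probes of dynlrb1, a light chain of the motor dynein, with a log2 fold change of -1.12 (adjusted P = 0.028). The other probes of this gene, both brighter, had log2 fold changes of -0.03 and -0.07 on Day 2 and overlapped with the controls. On Day 4 the first probe stood at -0.95 (adjusted P = 0.079). Without overlap on Day 2, 11 of the 54 probes were higher and 10 lower, against 15.6% and 8.80% of all probes. Those higher included kif11 (0.92, adjusted P = 0.077) and kif23 (0.49), both kinesins of the dividing cell, and mapre1a (0.44), which encodes a protein of the growing microtubule tip. Those lower included the stathmin stmn4l (-0.27 and -0.36) and tubgcp2 (-0.24), another subunit of the γ-tubulin ring complex. The genes named are a selection from both sides, and the others are not listed.

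On Day 4, 14 of the 54 probes were higher than all control arrays and 3 lower, against 15.6% and 3.52% of all probes. Both probes of stmn4, a stathmin, which binds free tubulin dimers, had log2 fold changes of 0.81 and 0.79 (adjusted P = 0.14 and 0.17). The dynein regulators ndel1b (0.81) and pafah1b1b (0.45) and the tubulin folding cofactor tbcc (0.36) were also higher without overlap. The rest of the 14 higher probes and the 3 lower ones are not named. The median over the 34 probes well above background on all arrays was -0.03 on Day 2, 0.11 on Day 4 and 0.19 for Day 4:Day 2. In Day 4:Day 2, 15 of the 34 were higher without overlap and 0 lower, against 23.2% and 7.95% of the 8024 probes of that brightness, and whether this list differs from the tubulins was not tested.

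Markers of cell types were read beside the tubulins. Summed levels are sums over probes on the scale before log2, so that the brightest probes weigh most in them. Their counts without overlap stand beside 15.6% of all probes higher and 8.80% lower on Day 2, and 15.6% higher and 3.52% lower on Day 4. For Day 4:Day 2 these shares were 12.8% and 5.97%. A marker probe said to have risen or fallen passed the test. Over all probes 0.735% passed on Day 2 and 0.279% on Day 4, in either direction. Of 23 probes for neuronal genes, 0 were significantly regulated in any comparison, and on Day 2 none was higher without overlap and 10 were lower. The median of the 19 brighter ones was -0.19 on Day 2, and their summed level was 628 to 687 on Day 2, against 714 to 758 in controls. On Day 4 they lay the other way, with 10 of the 23 higher than controls without overlap and 2 lower, a median of 0.21 for the brighter ones and a summed level of 774 to 1042 on Day 4. In Day 4:Day 2, 15 were higher and 1 lower, with a median of 0.40. Of 9 probes for hair cell genes, 1 was higher and 3 were lower on Day 2 without overlap. The summed level of the 6 above background on all arrays was 2464 to 2675 on Day 2, against 2792 to 2920 in controls, and on Day 4 it was 2712 to 4011.

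Of 33 probes for genes of cell division, 3 rose on Day 2, for cdk1 (log2 fold change 1.05, adjusted P = 0.031) and mcm5 (1.12 and 1.16), and 18 were higher without overlap against 1 lower. Only 7 of these probes were above background on all arrays, and the summed level of those 7 was 187 to 225 on Day 2, against 189 to 219 in controls. Of 10 probes for macrophages and other leukocytes, mpeg1.1 rose on Day 2 (1.23, adjusted P = 0.026), and 8 were higher without overlap. The summed level of the 8 brighter ones was 1023 to 1127 on Day 2, against 675 to 723 in controls. On Day 4, 7 of the 10 leukocyte probes were higher without overlap and 0 lower, against 15.6% and 3.52% of all probes. Their summed level was then 848 to 992. Of 20 probes for glia and myelin, the 3 probes of gfap fell on Day 2. Without overlap 4 of the 20 were higher and 5 lower, and the median of the 17 brighter ones was -0.07. The summed level of 17 of them was 3512 to 3930 on Day 2, against 3687 to 3843 in controls. Of 8 pituitary hormone probes 5 rose on Day 2 and 4 on Day 4, among them lhb at 3.40 and 3.28 on Day 2, and only 1 of the 8 was above background on all arrays. The part of these cell types in the tubulin values was not tested.

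On Day 4, 5 of 34 muscle probes fell, against 0.279% of all probes in either direction. Without overlap 14 were lower and 1 higher, against 3.52% and 15.6% of all probes. Their summed level over 13 probes was 252 to 308 on Day 4, against 368 to 400 in controls. On Day 2, 1 of the 34 fell, against 0.735% of all probes in either direction. Without overlap 7 were lower and 4 higher on Day 2, against 8.80% and 15.6% of all probes, with a summed level of 343 to 383. Of 7 red blood cell probes none was significantly regulated, and the median of 6 was -0.40 for Day 4:Day 2.

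The probes whose levels followed tuba1 most closely over the 9 arrays were taken from 5351 probes with a gene symbol that were well above background on all arrays. They were ckap4 with 2 probes (r = 0.991 and 0.985), col1a1b (0.991), tbx18 (0.991) and ugdh (0.987), each against the mean of the 3 tuba1 probes. The 9 arrays share 3 RNA pools and 3 slides, and r is given as a description. Because these probes were picked for following tuba1 on the same arrays, their Day 2 values are no separate support. The gene ckap4 encodes a membrane protein of the endoplasmic reticulum that binds microtubules, col1a1b a chain of type I collagen, tbx18 a T-box transcription factor, and ugdh the enzyme that makes the UDP-glucuronate used for hyaluronan. The mean of tuba1 was 5.36, 5.23 and 5.35 on Day 2 and 4.81, 4.64 and 4.77 in controls, and on Day 4 it was 4.66, 4.83 and 4.62. For col1a1b the levels were 4.58, 4.42 and 4.45 on Day 2 and 3.55, 3.43 and 3.47 in controls, with a log2 fold change of 1.00 (adjusted P = 0.060). On Day 4 it read 3.35, 3.61 and 3.22, lower than every Day 2 array.

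**Figure D4:**
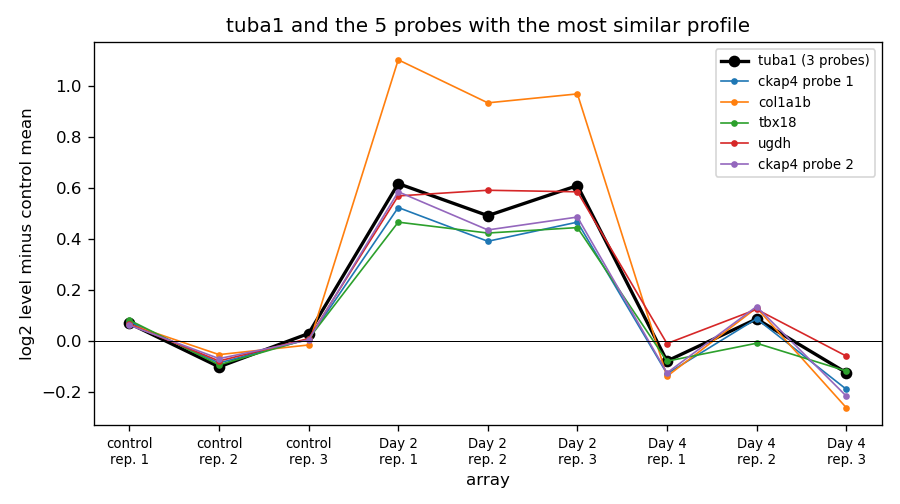
Level of tuba1 (mean of 3 probes, black) and of the 5 probes with the highest correlation to it, as log2 intensity minus the mean of the 3 control arrays (vertical axis), on each array. The Day 2 arrays are above all other arrays for each line, and the Day 4 arrays lie near the controls. The 5 probes were selected for this likeness on the same arrays.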

How the data were processed

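The authors deposited the spot intensity of each of 9 arrays as written by Feature Extraction 9.5.1.1 (background-subtracted, not scaled between arrays), with positions on danRer2. They also deposited 3 tables of comparisons, whose fold changes, P-values and 6 columns of normalized values were not used. Values given here are log2 intensities, without control and outlier spots, minus the 50th percentile of their array and averaged over the 2 spots of a probe. No dim probe was removed. The limma model (version 3.58.1, R 4.3.3) had terms for group and slide over all 9 arrays, and P-values were adjusted by Benjamini and Hochberg over 21495 probes. The fit was run on simulated data with a capped spread and with planted changes larger than most of those of the tubulin probes. It therefore does not show how often changes of their size would be found. Same-numbered Day 2 and control arrays shared a scan time and so were taken as 1 slide. Their deviations from the group means correlated (r = 0.50, 0.27 and 0.54 over 8024 probes above background on all arrays), so that the number pairs them. The pairing was less clear for number 2, since Day 2 replicate 3 and control replicate 2 also correlated (r = 0.23). The numbers did not pair the Day 4 arrays (-0.06 to 0.12). Those were placed by scan time alone, replicate 1 on slide 1 and replicates 2 and 3 on slide 3, which departs from the layout in the methods. Their deviations also correlated little with those of the other groups on the same slide (-0.02 to 0.12). The correlations thus do not bear out this placement either.

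Current symbols came from the RefSeq table for GRCz12tu, which matched 10277 probes. Log2 fold changes are named for every tuba1 and tuba8 probe and for other members above background on all arrays or without overlap between groups, though not in every comparison. Other lists name only some of the genes that passed or did not overlap. The values of tubgcp3, dynlrb1's other probes and the probes outside the rule were added after they were seen. The members and lists were chosen with earlier results of these data known. The number of arrays limits the precision. Alternatives were another scaling percentile, normexp background correction, a filter on dim probes, no slide term, the replicate number as block, 2 groups at a time, a trended robust variance, the methods' t-test and leaving out each array. Scaling on bright probes was added after seeing the data. Tables were read with pandas 2.3.3, numpy 2.4.6 and scipy 1.17.1 in Python 3.11.15, and plots drawn with matplotlib 3.10.9. Probe sequences were not used here.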

Additional observations from a re-analysis of the deposited data

How the results depend on the processing

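The count of significantly regulated tubulin probes, 0 in each comparison, stayed 0 in Day 4:Control under every alternative run. In Day 2:Control it was 4 with the 75th percentile, 4 with scaling on bright probes, 6 without dim probes, 2 with no slide term, 6 with a trended robust variance, and 6 (unadjusted) or 2 (Benjamini-Hochberg) with the methods' t-test. In Day 4:Day 2 it was 3, 3, 4, 1, 4, and 3 (unadjusted) under the same settings. It was 0 with normexp, with 2 groups at a time, with the replicate block and without any one array. The count over all probes, 158, 60 and 14, was 902, 960 and 954 without dim probes, 629, 293 and 369 with the 75th percentile, 628, 292 and 388 with scaling on bright probes, 1014, 973 and 962 with a trended variance, 506, 298 and 184 with no slide term, 11, 25 and 0 with 2 groups at a time, 1148, 678 and 632 with the unadjusted and 222, 0 and 0 with the adjusted t-test, and 1, 0 and 0 with normexp. The replicate block gave 89, 57 and 13.

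Normexp also put the median of all probes at -0.017, -0.13 and -0.075, against 0.12, 0.29 and 0.24, and that of the 8024 bright probes at 0.42, -0.11 and -0.55. Of the 16 tubulin probes above background on all arrays it moved 11, 6 and 7 by more than a factor of 1.5 without a turn of sign, among them tubb5 probe 1 (-0.078) and tuba1 probe 1 (0.57) in Day 2:Control. Under it the tuba1 minus tuba8l3 change turned to -0.088, 0.079 and 0.17. Signs also turned in Day 2:Control for tuba8l2 (0.088 and 0.15) and tubgl (0.39), and in Day 4:Control for tuba1 probe 2 (-0.15), tuba8l (-0.23), tuba8l3 (-0.24), tuba8l4 (-0.17), tubb2 probes 2, 3 and 4 (-0.19, -0.17 and -0.18), tubb5 probe 3 (-0.17) and tubgl (-0.13). In Day 4:Day 2 they turned for tuba8l2 (-0.40 and -0.54), tuba8l4 (-0.65), tubb2 probes 2, 3 and 4 (-0.75, -0.76 and -0.75), tubb5 probe 1 (-0.45) and tubgl (-0.52). With the 75th percentile and with scaling on bright probes, tuba8l4 read -0.056 and -0.062 in Day 2:Control, and in Day 4:Control tuba1 probe 2 read -0.035 and -0.057, tuba8l3 -0.039 and -0.061, and tubb5 probe 3 -0.068 and -0.090, with tubgcp3 at -0.014 with bright probes. With no slide term, with the replicate block and with the paired t-test, tubb5 probe 2 read 0.017 in Day 4:Control and tubgcp3 0.013 in Day 4:Day 2 (0.035 with 2 groups at a time). None of these passed the threshold, and the cause was not tested.

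Without 1 array, the tuba1 minus tuba8l3 change ran from -0.022 to 0.17 in Day 2:Control, from -0.19 to -0.0069 in Day 4:Control and from -0.22 to -0.099 in Day 4:Day 2. Signs turned in Day 4:Control for tuba1 probe 2 (-0.054 to 0.21), tuba8l3 (-0.0074 to 0.13), tubb5 probe 2 (-0.11 to 0.082) and tubb5 probe 3 (-0.14 to 0.16), in Day 2:Control for tuba8l4 (-0.066 to 0.069) and tubgl (-0.16 to 0.032), and in Day 4:Day 2 for tubb2 probes 2, 3 and 4 (-0.053 to 0.19, -0.015 to 0.23 and -0.029 to 0.22) and tubgcp3 (-0.075 to 0.044). For tuba1 probes 2 and 3 in Day 2:Control and Day 4:Day 2, no alternative turned the direction. Signal over background limited tuba4l, tuba7l and tubgcp3.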
